A study of Mus musculus with 2 samples.

Results

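Core and naive pluripotency factors were examined as 10 genes, namely Pou5f1, Sox2, Nanog, Esrrb, Sall4, Tfcp2l1, Zfp42, Tcl1, Utf1 and Dppa2. They were chosen by name and matched to the gene symbols of both libraries, where 23320 symbols were shared and 18742 of these were above 0 in at least 1 library. All 10 were found, each as a single entry per library, and all had an RPKM of at least 5 in both libraries. RPKM is a read count divided by the length of the gene's exons and by the depth of the library, so levels can be compared between genes.

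Primordial germ cells (PGCs), the fetal precursors of eggs and sperm, were sorted from the genital ridges of E13.5 mouse embryos of both sexes, from MCH females mated with Oct4-deltaPE-GFP males, by strong GFP. The reporter is driven by Oct4 (Pou5f1) regulatory DNA without the proximal enhancer, so both libraries come from cells selected for activity of one of the genes described here. The cells were infected at an MOI of 5 with a control lentivirus or with one made to express Klf9 from its coding region (Klf9-OE), and were kept for 1 day on gelatin without feeder cells. The sample labels say that the medium held bFGF, whereas the paper says that it did not, and neither distinguishes the groups in this respect. Each group is 1 library, so no difference below has a replicate check, and a lower level per cell cannot be told apart from fewer cells of a type. Klf9 itself had an RPKM of 2.27 in control PGCs and 80.8 in Klf9-OE PGCs, as the labels say, with vector and endogenous reads counted together.

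Pluripotency rests on a network of transcription factors that bind regulatory DNA together and sustain each other's expression. OCT4 (from Pou5f1) and SOX2 bind side by side as a heterodimer, and NANOG joins them at many sites. Esrrb, Tfcp2l1, Klf factors and Zfp42 (Rex1) belong to the naive state of the early epiblast and of embryonic stem cells (ESCs) cultured with LIF. PGCs keep much of this network while committed to the germ line, and in culture some can convert to pluripotent embryonic germ cells. KLF9 is a Krüppel-like factor, and such factors bind GC-rich boxes and CACCC boxes in promoters through zinc fingers.

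Promoter sequence was available from RefSeq (GRCm38.p6, the assembly of mm10) for 8 of the 10 genes, all but Sall4 and Dppa2. The stretches below are those of the 6 of these 8 genes whose RPKM intervals did not overlap between the libraries, with the 3 higher in Klf9-OE PGCs before the 3 lower. They are shown because KLF9 could bind such boxes, although binding was not measured here. Each is written 5′ to 3′ on the strand of the gene, and stops before the start of the gene in RefSeq and in GENCODE. Capitals mark a match to the GC box, spelled GGGCGG. They also mark a match to the second motif searched for, which is the CACCC box and is spelled CCACCC. Both motifs were searched on either strand, so their reverse complements are in capitals too.
Utf1: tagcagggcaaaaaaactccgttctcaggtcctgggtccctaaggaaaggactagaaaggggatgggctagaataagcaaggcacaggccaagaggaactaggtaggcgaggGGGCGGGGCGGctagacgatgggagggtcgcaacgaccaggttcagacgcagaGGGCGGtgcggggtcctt
Sox2: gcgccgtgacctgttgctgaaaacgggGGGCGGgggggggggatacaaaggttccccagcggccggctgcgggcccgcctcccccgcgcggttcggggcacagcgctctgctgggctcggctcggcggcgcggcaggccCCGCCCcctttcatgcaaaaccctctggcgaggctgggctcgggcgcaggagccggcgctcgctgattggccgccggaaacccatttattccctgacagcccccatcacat
Tcl1: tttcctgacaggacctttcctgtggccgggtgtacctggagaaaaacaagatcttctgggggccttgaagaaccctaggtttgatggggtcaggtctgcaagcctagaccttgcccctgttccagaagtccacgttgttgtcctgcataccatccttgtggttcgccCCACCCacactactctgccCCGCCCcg
Pou5f1: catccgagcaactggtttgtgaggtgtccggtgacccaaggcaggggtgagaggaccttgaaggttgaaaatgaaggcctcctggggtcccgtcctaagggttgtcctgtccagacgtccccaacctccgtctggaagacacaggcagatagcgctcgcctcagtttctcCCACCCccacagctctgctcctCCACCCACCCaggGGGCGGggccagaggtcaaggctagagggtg
Nanog: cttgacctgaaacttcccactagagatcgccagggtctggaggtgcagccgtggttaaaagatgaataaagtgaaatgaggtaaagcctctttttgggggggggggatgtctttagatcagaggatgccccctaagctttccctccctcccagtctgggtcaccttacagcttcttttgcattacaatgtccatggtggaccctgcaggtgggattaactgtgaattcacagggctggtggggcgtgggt
Tfcp2l1: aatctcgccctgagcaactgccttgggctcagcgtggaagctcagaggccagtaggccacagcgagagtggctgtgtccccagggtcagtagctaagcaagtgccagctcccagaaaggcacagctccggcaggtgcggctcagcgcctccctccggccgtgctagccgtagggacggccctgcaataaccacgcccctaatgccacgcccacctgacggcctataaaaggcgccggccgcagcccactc

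These stretches lie at chr7:139943606-139943788 (forward strand), chr3:34649745-34649994 (forward), chr12:105222794-105222987 (reverse), chr17:35505782-35506017 (forward), chr6:122707239-122707488 (forward) and chr1:118627695-118627944 (forward). Over the whole 250 bases before the RefSeq start, Utf1 had 4 GC boxes, of which the leading pair shares a base, and Sox2 and Tcl1 had 2 each. Pou5f1 had 1 GC box and 4 CACCC boxes, 2 of which overlap, and Tfcp2l1 had neither box. Nanog had neither box before its upstream start and 1 CACCC box before its other RefSeq start. The end of the sequence after each start was looked for in the GENCODE transcripts of the gene. It was not found for Sox2 and for the upstream start of Nanog, and was found for all other starts. Sox2 starts at 34649995 in RefSeq and at 34650405 in GENCODE. Zfp42 had 2 boxes of each kind, and Esrrb had 1 CACCC box before each of its starts. A GC box was thus found in 3 of 3 genes higher in Klf9-OE PGCs and in 1 of 3 lower genes, and a CACCC box in 1 of 3 (Tcl1) and 2 of 3, respectively. A gene with several starts was counted if any of them had the box, whereas the shares that follow are per promoter. Of the 32851 promoters of the same length in RefSeq, 32.7% held a GC box and 28.1% a CACCC box. For the 8563 promoters of genes that reached an RPKM of 5 in a library, these shares were 60.9% and 31.7%, so a GC box is common in promoters of genes at these levels. Only these 2 spellings were searched, so a promoter without a match may still hold another GC-rich site. The matches describe letters in this window and say nothing of whether KLF9 was bound there.

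**Figure D1:**
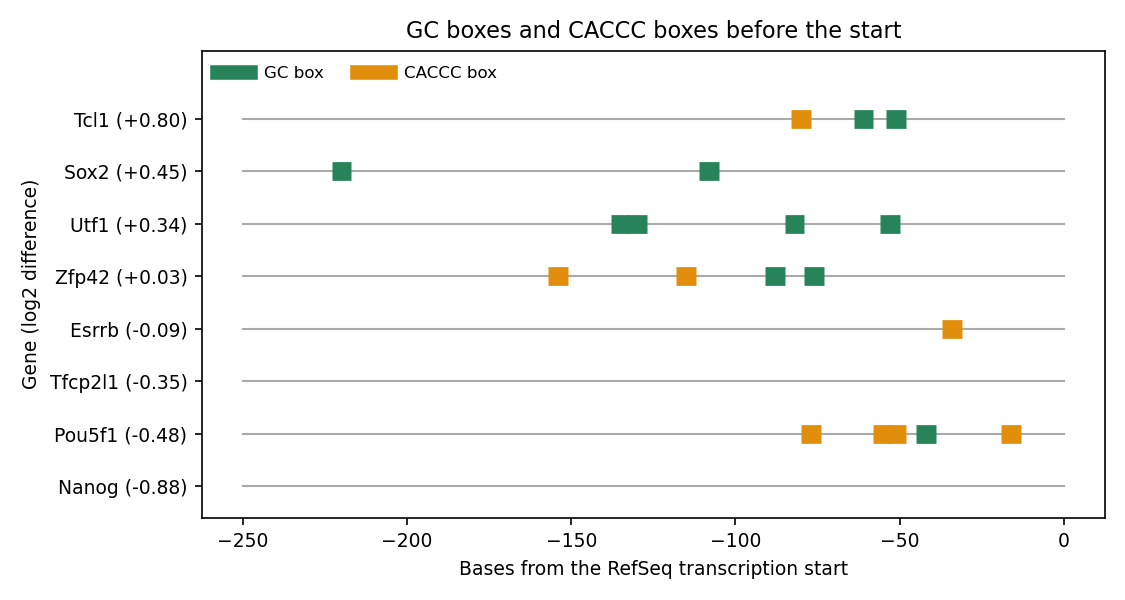
Positions of GC boxes (green) and CACCC boxes (orange) in the 250 bases before the upstream RefSeq start of 8 genes, with the distance from the start in bases on the horizontal axis and the log2 difference between Klf9-OE and control PGCs beside each name. Nanog and Tfcp2l1 have no box in this window, whereas Utf1, Sox2 and Tcl1 have 4, 2 and 2 GC boxes.

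None of the 10 genes differed 2-fold between the libraries. Of all 18742 genes, 9.82% passed this threshold upward with Klf9-OE and 9.43% downward, most of them genes with low values. The shares were 3.93% and 3.79% of the 12565 genes that reached an RPKM of 1 in a library. They were 2.47% and 2.67% of the 9072 genes that reached an RPKM of 5, to which all 10 belong. Smaller differences went in both directions. The Cufflinks 95% intervals did not overlap for 8 of the 10 genes. Tcl1, Dppa2, Sox2 and Utf1 were higher in Klf9-OE PGCs, and Nanog, Pou5f1, Tfcp2l1 and Sall4 were lower. Esrrb and Zfp42 had intervals that overlapped. Over all genes, intervals did not overlap for 25.5%, with 11.2% higher and 14.4% lower. The share was 35% of genes that reached an RPKM of 1, with 14.8% higher and 20.2% lower, and 37.7% of those that reached 5, with 15.1% higher and 22.6% lower. The split over all genes depended on scaling, with 2091 genes higher and 2697 lower as deposited, and 2858 higher and 2027 lower when both libraries were given the same sum.

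Before these intervals are used, the reads behind them have to be considered. Where the interval reflects the read number alone, its width gives back the reads behind a value. At equal RPKM, the Klf9-OE library had 1.20 such reads per control read (median over 8825 genes, quartiles 1.07 and 1.26). Where 1 to 9 reads lay behind a value, even numbers made up 36.4% of 2132 control genes and 89.0% of 1767 Klf9-OE genes. Had Klf9-OE reads been counted in pairs, its intervals would be too narrow by the square root of 2. With the Klf9-OE intervals widened by this factor, the same 8 genes had intervals that did not overlap. The intervals cover the estimate within a library and not the difference between cultures. Implied reads could be read for 6 of the genes, and ranged from 209 for Tcl1 to 3830 for Tfcp2l1 in the control library, and from 424 for Tcl1 to 4150 for Sox2 in the Klf9-OE library.

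**Figure D2:**
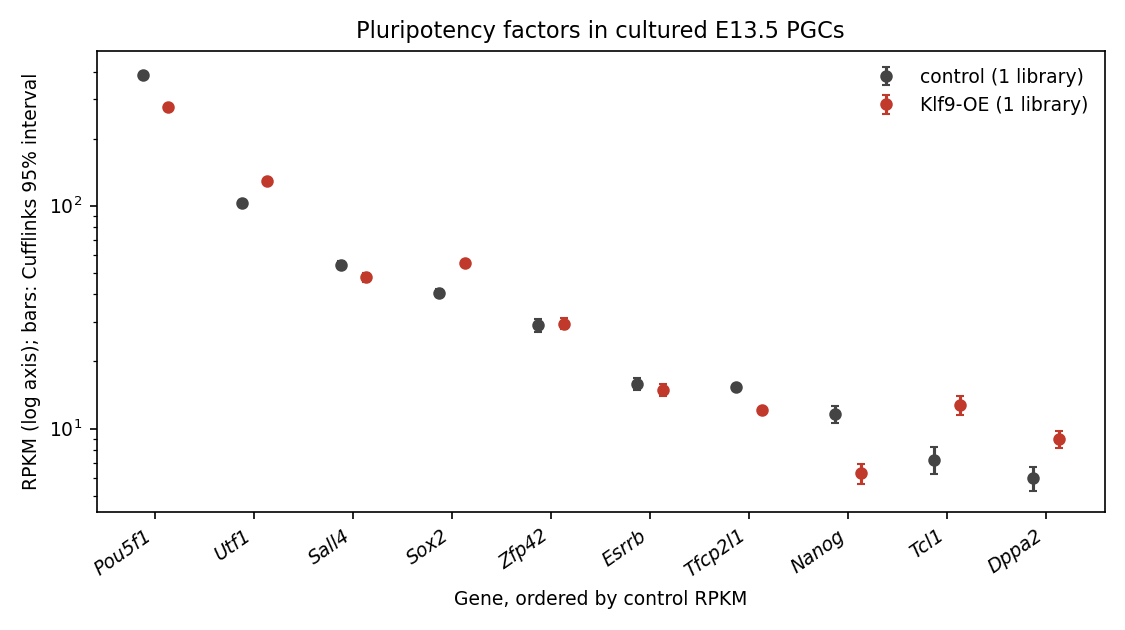
RPKM on a log axis of the 10 genes in the control library (dark grey) and the Klf9-OE library (red), with bars for the Cufflinks 95% interval, which is often smaller than the point. Pou5f1 stands highest in both libraries, and Nanog moves from above Tcl1 and Dppa2 to below them.

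Of the core factors, Pou5f1 (OCT4), the POU-domain factor without which neither the epiblast nor PGCs persist, was the most abundant of the 10. Control PGCs had a Pou5f1 RPKM of 387 (375 to 399, the 95% interval) against 277 (267 to 287) with Klf9-OE, which is 1.40-fold lower. On the log2 scale the difference was -0.48 (-0.55 to -0.41). Pou5f1 was at rank 165 of 18742 genes in control PGCs and at rank 239 in Klf9-OE PGCs, so it stayed among the most abundant transcripts of the cells. Its share of the summed RPKM of the 10 genes was 57.8% and 46.6%, respectively.

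The Pou5f1 entries do not span the same bases in the libraries. In mm10 the gene lies on the forward strand of chromosome 17 from 35506018 to 35510772 with 5 exons. The control entry starts at 35498979, which is 7053 bases before the start of the Klf9-OE entry, and both end at 35510777. The Klf9-OE library has 4 unnamed loci inside that upstream stretch, with an RPKM of 1.97 to 4.30. When these were added to Pou5f1, its RPKM in Klf9-OE PGCs was 288 and the log2 difference was -0.43.

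Sox2, the HMG-box partner of OCT4, was higher where OCT4 was lower. Its RPKM was 40.6 (39.0 to 42.2) without and 55.3 (53.6 to 57.0) with Klf9-OE, 1.36-fold higher in the latter, with a log2 difference of 0.45 (0.37 to 0.52). The ratio of Pou5f1 to Sox2 was 9.54 in the control library (9.06 to 10.04) and 5.01 in the Klf9-OE library (4.77 to 5.26). Such a ratio within a library does not depend on how the libraries are scaled. Sox2 is a single-exon gene on chromosome 3 (34650405 to 34652461) that lies within the long noncoding gene Sox2ot, with which it shares no exonic base in GENCODE.

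Nanog, the homeodomain factor that holds the naive state, had the lowest log2 difference of the 10. With the same sum, the difference of Tcl1 (0.86) was larger in size than that of Nanog (-0.82). Its RPKM was 11.7 (10.6 to 12.7) without and 6.30 (5.63 to 6.97) with Klf9-OE, 1.85-fold lower, with a log2 difference of -0.88 (-1.07 to -0.68). It was the only one of the 10 genes at least 1.5-fold lower, against 6.38% of genes that reached an RPKM of 5 and 15.1% of all genes. The ratio of Sox2 to Nanog was 3.48 (3.16 to 3.83) without and 8.77 (7.86 to 9.79) with Klf9-OE. The promoter printed above had no GC box or CACCC box before the upstream start. Nanog lies on the forward strand of chromosome 6 from 122707489 to 122714633.

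Sall4, a zinc-finger partner of OCT4 and NANOG that is also needed in germ cells, had an RPKM of 54.1 (51.7 to 56.4) without and 47.7 (45.7 to 49.7) with Klf9-OE. This was 1.13-fold lower, with a log2 difference of -0.18 (-0.27 to -0.09). The intervals of Sall4 no longer stood apart when the libraries were scaled to the same sum. The other 7 genes kept intervals that stood apart under each scaling.

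**Figure D3:**
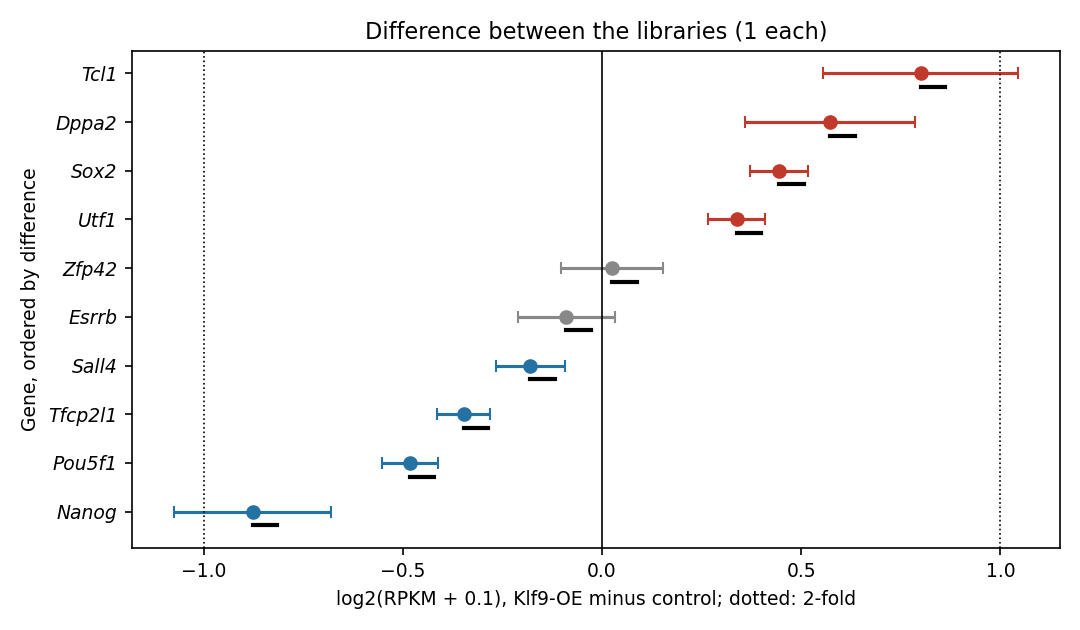
Difference in log2(RPKM + 0.1), Klf9-OE minus control, for the 10 genes, with bars for the 95% interval made from the deposited intervals and a black line below each point for the range over 3 rescalings and the deposited scale. Red and blue mark genes whose intervals stood apart on the deposited scale (higher and lower, respectively) and grey those whose intervals overlapped, and no point reaches the dotted lines at 2-fold.

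The naive factors did not move together. Tfcp2l1, a factor induced by LIF and STAT3 in ESCs, had an RPKM of 15.4 (14.9 to 15.9) without and 12.1 (11.7 to 12.5) with Klf9-OE, 1.27-fold lower. Its log2 difference was -0.35 (-0.41 to -0.28). Esrrb, an orphan nuclear receptor that can stand in for Nanog in several settings, had 15.9 (14.96 to 16.8) and 14.9 (14.002 to 15.8), with intervals that overlapped. Its log2 difference was -0.09, and the interval of -0.21 to 0.03 leaves room for differences in either direction. In control PGCs the levels of Esrrb and Tfcp2l1 could not be told apart, whereas in Klf9-OE PGCs Esrrb was 1.23 times as high as Tfcp2l1 (1.15 to 1.32).

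Zfp42 (REX1), a zinc-finger protein used as a marker of undifferentiated ESCs, had an RPKM of 29.0 (27.0 to 31.0) without and 29.5 (27.9 to 31.2) with Klf9-OE. The log2 difference was 0.03, with an interval of -0.10 to 0.15. It kept its place in the order of the 10 genes, although its ratio to Pou5f1 went from 0.0750 to 0.107.

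Tcl1, Utf1 and Dppa2 are not network core factors, but accompany pluripotency. Tcl1, a co-activator of AKT whose product promotes ESC proliferation, had the largest difference among the higher genes. Its RPKM was 7.26 (6.26 to 8.27) without and 12.7 (11.5 to 13.95) with Klf9-OE, 1.75-fold higher, with a log2 difference of 0.80 (0.56 to 1.04). Its 209 and 424 implied reads were the fewest among the genes for which they could be read. Tcl1 was the only one of the 10 at least 1.5-fold higher, against 4.76% of genes that reached an RPKM of 5 and 16.1% of all genes. The 5 Tcl1b genes beside it on chromosome 12 were near 0, the highest at 0.0724 in Klf9-OE PGCs, or listed at 0, which can be a failed estimate.

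Dppa2, a SAP-domain protein that works with DPPA4 and is restricted to pluripotent and germ cells, had an RPKM of 5.98 (5.27 to 6.69) without and 8.94 (8.16 to 9.73) with Klf9-OE. It was 1.496-fold higher, just short of that threshold, with a log2 difference of 0.57 (0.36 to 0.79). Its partner and neighbour Dppa4, 9616 bases away on chromosome 16, was higher in the same direction, with an RPKM of 217 (206 to 227) without and 278 (266 to 291) with Klf9-OE. The ratio of Dppa4 to Dppa2 was 36.2 (31.9 to 41.2) and 31.1 (28.2 to 34.4), with intervals that overlapped.

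Utf1, a chromatin protein and a direct target of OCT4 and SOX2 in ESCs, had an RPKM of 103 (98.7 to 107) without and 130 (126 to 134) with Klf9-OE. It was 1.26-fold higher, with a log2 difference of 0.34 (0.27 to 0.41). The ratio of Utf1 to Pou5f1 was 0.265 (0.252 to 0.279) without and 0.468 (0.446 to 0.492) with Klf9-OE. Its promoter, printed above, had the most GC boxes among the 8 genes.

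The other 7 genes lie in mm10 on chromosome 2 from 168748332 to 168767943 (Sall4, reverse strand), chromosome 12 from 86361117 to 86521628 (Esrrb, forward) and chromosome 1 from 118627945 to 118685168 (Tfcp2l1, forward). Zfp42 lies on chromosome 8 from 43295063 to 43306980 (reverse) and Tcl1 on chromosome 12 from 105216750 to 105222793 (reverse). Utf1 lies on chromosome 7 from 139943789 to 139945112 (forward) and Dppa2 on chromosome 16 from 48303908 to 48319723 (forward).

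The order of the levels changed in the middle and at the bottom. In control PGCs it ran Pou5f1, Utf1, Sall4, Sox2, Zfp42, Esrrb, Tfcp2l1, Nanog, Tcl1 and Dppa2. Neighbours whose intervals overlapped in this order were Esrrb with Tfcp2l1 and Tcl1 with Dppa2. In Klf9-OE PGCs it ran Pou5f1, Utf1, Sox2, Sall4, Zfp42, Esrrb, Tcl1, Tfcp2l1, Dppa2 and Nanog, with overlap of Tcl1 and Tfcp2l1 alone. Nanog thus went from above Tcl1 and Dppa2 to the last place, and the ratio of Tcl1 to Nanog went from 0.623 (0.529 to 0.734) to 2.02 (1.75 to 2.33).

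**Figure D4:**
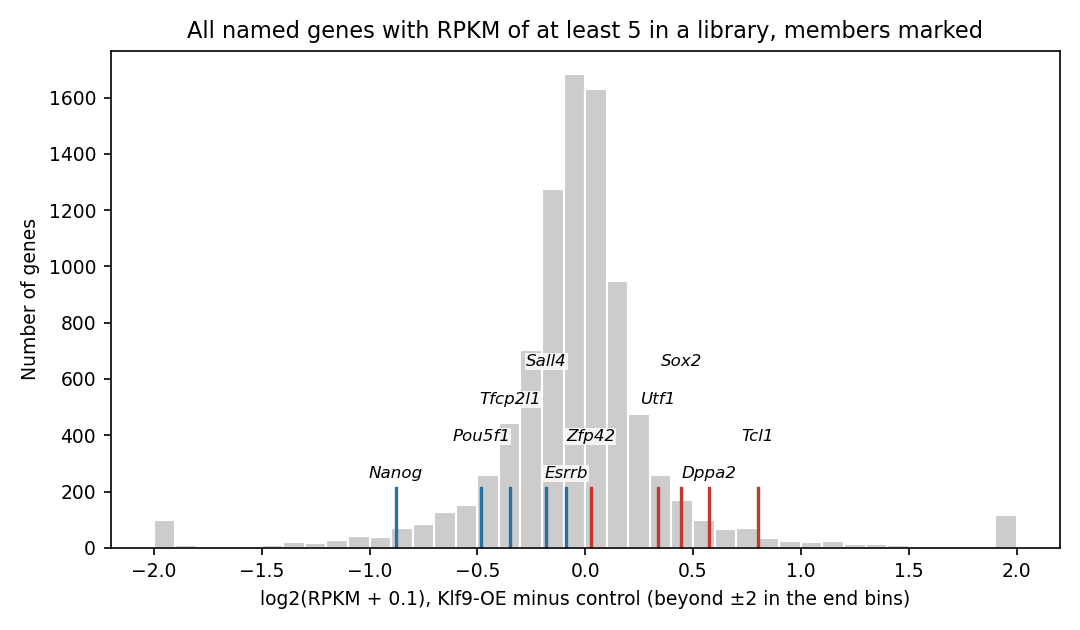
Number of genes by difference in log2(RPKM + 0.1), Klf9-OE minus control, for the 9072 genes that reached an RPKM of 5 in a library, with the 10 pluripotency factors marked in red (above 0) and blue (below 0). Nanog lies at percentile 3.25 and Tcl1 at percentile 96.9 of these genes, while Esrrb and Zfp42 lie near the centre.

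Over the 10 genes the median log2 difference was -0.03, and over the 9072 genes that reached an RPKM of 5 it was -0.03 as well, with quartiles of -0.19 and 0.11. A median near that of all genes goes here with members spread to both sides, from percentile 3.25 (Nanog), 8.25 (Pou5f1) and 12.9 (Tfcp2l1) to 90.9 (Utf1), 93.3 (Sox2), 95.2 (Dppa2) and 96.9 (Tcl1). Sall4, Esrrb and Zfp42 were at percentiles 25.6, 39.0 and 60.7. These percentiles describe the libraries and are no test.

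Among other factors of the naive network, the split depended on scaling. Of 14 such genes, 6 were lower and 2 higher with intervals that did not overlap. The shares were 20.2% lower and 14.8% higher among the genes that reached an RPKM of 1, as 12 of the 14 did. With the same sum 3 were lower and 3 higher. The median log2 difference was -0.13, and -0.07 with the same sum. The lowest were Gbx2 (-0.60), Klf4 (-0.49) and Prdm14 (-0.42), which encodes a factor needed to specify PGCs. Of the 12 with an RPKM of at least 1 in a library, the highest was Zscan10 (0.42). It was followed by Nr5a2 (0.32), a nuclear receptor that can replace OCT4 in reprogramming. Of all 14, Nr0b1 (0.75) had the highest difference and was the only one at least 2-fold higher, at an RPKM below 1 in both libraries.

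Among 16 genes that mark the pluripotent state or act under OCT4 and SOX2, 8 were lower and 2 higher by the same criterion, with a median of -0.17. The shares were 20.2% lower and 14.8% higher among the genes that reached an RPKM of 1, as 15 of the 16 did. The lower genes numbered 8 under each scaling, and the higher 4 with the same sum. Of all genes, 2858 were higher and 2027 lower with the same sum. Dnmt3l, the cofactor of de novo DNA methylation, went from an RPKM of 80.9 (77.2 to 84.7) to 38.1 (36.0 to 40.2). Lefty1, an inhibitor of Nodal signaling, went from 3.55 (2.95 to 4.16) to 1.74 (1.35 to 2.14), and Fbxo15, a known OCT4 and SOX2 target, from 54.7 (51.7 to 57.7) to 30.1 (28.1 to 32.2). Dnmt3l and Lefty1 reached a 2-fold lower level on the deposited scale, and Dnmt3l alone after each rescaling. L1td1, an RNA-binding protein of ESCs, was the only gene of the list at least 2-fold higher, from 6.04 (5.34 to 6.74) to 13.7 (12.8 to 14.5). Dppa3 (Stella), the nearest named gene to Nanog on its lower-coordinate side at 77218 bases, went from 294 (279 to 309) to 179 (169 to 188). Slc2a3, which encodes a glucose transporter on the other side of Nanog at 13176 bases, went from 29.1 (28.05 to 30.2) to 39.3 (38.2 to 40.4), opposite to Nanog.

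Of 12 genes of the formative and primed states, 5 were lower and 1 was higher with intervals apart, with a median log2 difference of -0.31. With the same sum, 3 were lower and 1 higher. All genes were also lower more often than higher on the deposited scale (14.4% against 11.2%), and not with the same sum. Sox3 (-0.51), Zic2 (-0.47) and Lef1 (-0.41) were the lowest of those with an RPKM of at least 1 in a library. The highest of those were T (0.55), Pou3f1 (0.21) and Cdh2 (0.20), of which Cdh2 alone had intervals apart. Fgf5 was below an RPKM of 1 in both libraries.

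**Figure D5:**
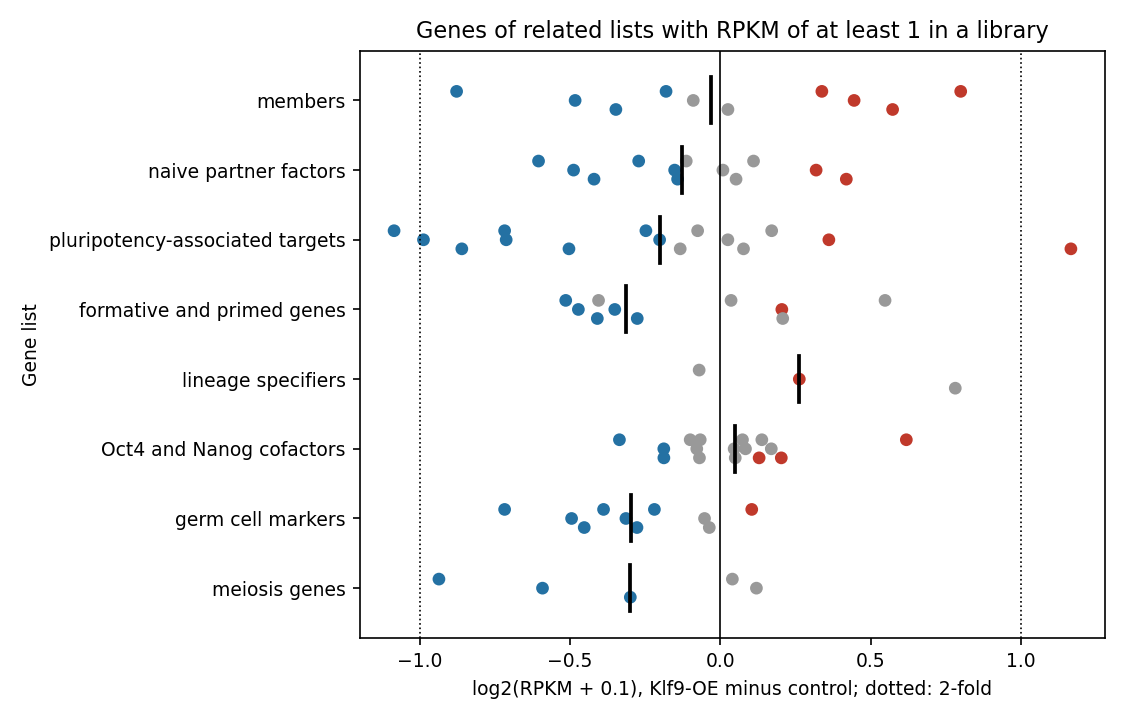
Difference in log2(RPKM + 0.1), Klf9-OE minus control, of the genes of 8 lists that had an RPKM of at least 1 in a library, with 1 point per gene, a black line at the median of the plotted genes, and dotted lines at 2-fold. Red and blue mark genes whose intervals did not overlap (higher and lower) and grey the others, and the pluripotency factors in the top row spread to both sides of 0 while most germ cell markers lie below it.

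Germ cell identity was clear in both libraries. Ddx4, Dazl and Mael, RNA-binding and piRNA-pathway genes of germ cells, all had an RPKM over 200. Of 10 germ cell markers, 7 were lower and 1 higher in Klf9-OE PGCs with intervals apart, with a median log2 difference of -0.30, against 22.6% lower and 15.1% higher among genes that reached an RPKM of 5. All 10 but Nanos2 reached that RPKM. The counts were 7 and 1 under each scaling. Nanos3 (-0.49) and Kit (-0.45) were among the lower, Dazl (0.10) was the higher, and the intervals of Ddx4 and Nanos2 overlapped. Of 5 meiosis genes, which mark female germ cells at this age, 3 were lower and none higher with intervals apart, read against the same 22.6% and 15.1%. Under each rescaling, 3 were lower and 1 higher. Dmc1 was at -0.94, Stra8 at -0.59 and Sycp3 at 0.04. Xist, which is expressed from an inactive X chromosome, had an RPKM of 0.829 (0.739 to 0.920) and 2.05 (1.91 to 2.20), and the Y-linked Eif2s3y had 59.0 (55.6 to 62.4) and 49.3 (46.5 to 52.2). Of the other Y-linked genes, Kdm5d was 1.16-fold lower, and Ddx3y and Uty were 1.14 and 1.11 times as high in Klf9-OE PGCs. The part of these differences in those of the pluripotency factors was not tested.

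Markers of other cells of the genital ridge were low beside them. The 10 gonad somatic markers reached at most 8.81 (Dlk1, control) and 9.29 (Amh, Klf9-OE), with sums of 28.7 and 34.9. With intervals apart, 4 were higher and 2 lower, against 11.2% and 14.4% of all genes. Star, needed for steroid synthesis, was listed at 0 in control PGCs, which can be a failed estimate, and had 2.39 (2.12 to 2.67) with Klf9-OE. Wt1, a factor of gonadal somatic cells, went from 3.41 (2.99 to 3.83) to 5.64 (5.002 to 6.27) and Amh, a Sertoli cell hormone, from 5.99 to 9.29. Sox9 went from 2.04 to 1.09, and Foxl2 was below 1 in both libraries. The 5 endothelial markers had sums of 19.9 and 30.2, mostly from Pecam1, which PGCs express too, and Cdh5 went from 1.995 (1.66 to 2.33) to 5.09 (4.57 to 5.60). Of the 5, Pecam1 and Cdh5 were higher and Tek lower with intervals apart, read against the same 11.2% and 14.4% of all genes. The 5 macrophage markers summed to 4.39 and 5.40, with Csf1r the one higher with intervals apart and none lower. At 2-fold, 1 was higher (Csf1r) and 3 lower (Adgre1, Ptprc and C1qa), against 9.82% and 9.43% of all genes. Adgre1 and Ptprc were below 0.1 in both libraries, and C1qa went from 0.248 to 0.068. The part of these cells in the differences of Sox2 and the other factors was not tested.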

How the data were processed

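RNA-seq libraries of control and Klf9-OE PGCs were compared, 1 of each. The authors mapped single-end reads to mm10 and RefSeq with TopHat2 and Bowtie and deposited the FPKM of each locus as estimated by Cufflinks, with the bounds of its 95% interval. For single-end reads FPKM is RPKM. Tool versions are not given in the sources used here.

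RPKM of entries with the same symbol was summed. Differences were log2(RPKM + 0.1), Klf9-OE minus control, which understates the change of low genes. A gene was called 2-fold different by its ratio without a pseudocount, and intervals were called apart when the deposited bounds did not overlap. Intervals of differences and ratios combine the relative half-widths of the deposited intervals as independent errors. Reads behind a value were computed as the square of 2 times the RPKM over the distance to the upper bound, counted as whole within 0.06, for genes with 1 transcript start in each library. Those of a member were used where their ratio followed the RPKM ratio, corrected for depth, within 10%. The depth ratio used genes with at least 100 such reads in the control library. Read totals are not in the tables, so depth is known only relatively. With 1 library per group no test was run. Promoters came from RefSeq (GRCm38.p6), and gene positions from GENCODE M21 on the same assembly. Reads are unstranded, and Pou5f1 and Sall4 share 317 and 290 exonic bases with genes on the other strand, and Tfcp2l1 shares 130 with Gm23497 on its own strand.

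The members and the 12 other gene lists were chosen with earlier results of these data known, and the erythroid list is not reported here. The genes named were the 10 members, Klf9, nearest neighbours and, of each list, up to 3 highest and 3 lowest with an RPKM of at least 1. Genes at 0 or below 1, Ddx4, Dazl, Sycp3, Mael, Nanos2, Tek, Tfcp2, Uty, Ddx3y, Kdm5d, Eif2s3y, Xist and the absent or low defining markers of other cells were named after their values were seen. The steps were tested on simulated data. Python 3.11.15, numpy 2.4.6, pandas 2.3.3 and matplotlib 3.10.9 were used.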

Additional observations from a re-analysis of the deposited data

Results flagged for a closer look

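Unnamed loci, which were not compared above, were more numerous near 3 of the 10 genes in the Klf9-OE library than in the control library. Within 10000 bases of Pou5f1 there were 5 in Klf9-OE PGCs and 1 in control PGCs, and the control entry of Pou5f1 itself spans the stretch that holds 4 of the 5. Within the same distance of Sox2 there were 2 and 1, and in or near Esrrb 3 and 1. The 3 in Esrrb lie inside the span of the single control locus there, which runs from 86442067 to 86462654 on chromosome 12. Over the whole library, unnamed loci numbered 15127 in Klf9-OE PGCs and 6482 in control PGCs. The difference was not tested.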

How the results depend on the processing

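No paired analysis was possible because each group has 1 library, and no replicate could be left out. With a threshold of 1.5-fold in place of 2-fold, 1 of the 10 genes was higher (Tcl1) and 1 was lower (Nanog), against none in either direction at 2-fold. Pseudocounts of 0.01 and 1, and scaling to the same upper quartile, to the same sum or by the median ratio, left the counts at 2-fold at 0. The log2 differences of the 10 genes moved by less than their intervals in all 51 comparisons with alternatives that could move them. A minimum RPKM of 1 and the use of 1 entry per gene could change none of the 10, which are single entries above it. Scaling moved the median of all genes from -0.015 to at most 0.041. With the same sum, the lower genes with intervals apart were 3 rather than 4, since those of Sall4 overlapped, whereas the 4 higher genes remained 4 under each of the 8 combinations of scaling and interval width. Combinations of a scaling with the wider interval, the minimum RPKM of 5, the rescaled list counts and the added Pou5f1 loci were chosen after seeing the data. For lists, Lefty1 lost its 2-fold call under each scaling. Over all genes, 1841 were higher and 1768 lower at 2-fold. These were 308 and 288 with a pseudocount of 1, 3014 and 2822 at 1.5-fold, 494 and 476 with a minimum RPKM of 1, and 224 and 242 with a minimum of 5. With intervals apart, 2091 were higher and 2697 lower. The higher were 1373 with the minimum of 5, and the lower 1671 with the same sum and wider interval. Depth limits Tcl1, Dppa2 and Nanog most, whose intervals were the widest of the 10.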

Other observations

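Chromatin cofactors that bind OCT4 and NANOG went in both directions. Of 16 found of 18 listed, 3 were higher and 3 lower with intervals apart, against 15.1% and 22.6% of the genes that reached an RPKM of 5. None was 2-fold different, and the median log2 difference was 0.05. The even split depended on scaling. With the same sum, 5 were higher and 2 lower, with a median of 0.11, and with either other scaling 4 were higher and 2 lower. Med12, a Mediator subunit, went from an RPKM of 18.9 (18.1 to 19.8) in control PGCs to 29.1 (27.6 to 30.7) in Klf9-OE PGCs, and Hdac2, a histone deacetylase of NuRD and Sin3 complexes, from 246 (237 to 255) to 195 (192 to 199). Specifiers of other lineages were low, with 3 of 10 at an RPKM of at least 1 in a library. With intervals apart, 2 were higher and none lower, against 11.2% and 14.4% of all genes. Gata4, also a gonad somatic gene, had 6.21 (5.67 to 6.74) and 7.47 (6.93 to 7.998). Eomes, the other, had 0.364 (0.234 to 0.494) and 0.795 (0.624 to 0.966). At 2-fold, 2 were higher (Eomes and Sox7, both below an RPKM of 1) and none lower, against 9.82% and 9.43% of all genes.

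Of 22 relatives of the 10 genes, 19 were found, with a median log2 difference of -0.12. With intervals apart, 1 was higher and 4 lower, against 11.2% and 14.4% of all genes. With the same sum, 3 were higher and 2 lower. Dppa4 was higher like Dppa2 (0.36 against 0.57), and Tfcp2, a relative of Tfcp2l1, was lower like it on the deposited scale (-0.19 against -0.35). Esrra was lower, from 10.9 (9.93 to 11.9) to 7.08 (6.37 to 7.79), while the intervals of Esrrb overlapped, and Sox3 was lower, from 7.12 (6.37 to 7.87) to 4.96 (4.39 to 5.52), while Sox2 was higher. Sall1, Sall2 and Sall3 were at or below an RPKM of 2.26 in both libraries, with intervals that overlapped. Atp9a, a P4-type ATPase gene that lies 6196 bases from Sall4, went from 87.8 (84.7 to 90.9) to 36.7 (35.3 to 38.1), a 2.39-fold lower level next to a gene that differed 1.13-fold. Of the 20 nearest neighbours of the 10 genes, 5 were higher and 3 lower with intervals apart, against 11.2% and 14.4% of all genes. The shares were 14.8% and 20.2% of genes that reached an RPKM of 1, as 14 of the 20 did.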
